A study of Rattus norvegicus with 8 samples.

Results

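The RNA interference machinery was followed through 10 protein-coding genes, Ago1, Ago2, Ago3, Ago4, Dicer1, Drosha, Dgcr8, Xpo5, Tarbp2 and Tnrc6b. Each was found once by its symbol among the 22293 protein-coding genes of the deposited count table, which holds 34298 genes in all. Poly-T selected RNA came from the orbitofrontal cortex of 8 adult male Sprague-Dawley rats, 8 weeks old on arrival. Of these, 4 had received circNrxn3 siRNA (replicates 1 to 4) and 4 scrambled siRNA (replicates 1, 3, 4 and 5). In both groups the infusion into the orbitofrontal cortex held 5 ng of siRNA in 1 µl with the transfection reagent JetPEI, and tissue was taken 7 days later. circNrxn3 is a circular RNA of the neurexin 3 gene, and the siRNA was designed against its backsplice junction. All 8 animals were therefore given a small double-stranded RNA, and an animal without siRNA is not among the groups, so the values below compare siRNA sequences and not siRNA with none.

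MicroRNAs and siRNAs share most of this machinery. In the nucleus, Drosha and its partner Dgcr8 cut hairpins out of primary microRNA transcripts, and exportin 5, the product of Xpo5, carries them to the cytoplasm. There Dicer, helped by the double-stranded RNA binding protein TRBP (Tarbp2), trims them to short duplexes. One strand of the duplex is kept by an Argonaute protein and guides it to matching mRNAs, and proteins of the GW182 family such as Tnrc6b link Argonaute to the enzymes that shorten the poly-A tail. A synthetic siRNA duplex enters at the Argonaute step. In neurons this pathway is known for tuning the translation of synaptic mRNAs.

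The strands of the siRNA are shown because they are what the Argonautes of the circNrxn3 siRNA animals were given to load. Both are written 5′ to 3′ as the labels give them. In the antisense strand, which is complementary to the junction, the capitals mark bases 2 to 8, the seed by which an Argonaute first finds a target. The strands pair over 19 bases and each ends in an overhang of 2 bases. The scrambled control's sequence was not given in the sources used here.
circNrxn3 siRNA sense: uccaaaggcuagacaggaauu
circNrxn3 siRNA antisense: uUCCUGUCuagccuuuggauu

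Libraries held 27589883 to 35221782 counts. Markers of neurons summed to 8133 to 8871 CPM (counts scaled to library size with TMM factors) in circNrxn3 siRNA libraries and 8076 to 8737 CPM in scrambled siRNA libraries, and all 8 of 8 neuronal markers passed the filter on low counts, as did 8 of 8 markers of cortical layers. Striatal projection neuron markers were also present, at 434 to 511 CPM in circNrxn3 siRNA and 467 to 591 CPM in scrambled siRNA libraries. No marker of any list passed the test described below, where 0% of all genes tested did. Red blood cell markers summed to 359 to 760 CPM in circNrxn3 siRNA and 608 to 2440 CPM in scrambled siRNA libraries, with 0 of 6 log2 fold changes above 0 (median −1.15). Astrocyte markers had 1 of 7 above 0 (median −0.16) and oligodendrocyte markers 8 of 8 (median 0.16). At an unadjusted edgeR p below 0.05, 5 of 6 red blood cell, 2 of 7 astrocyte and 1 of 7 striatal markers were lower. Among oligodendrocyte markers 1 of 8 was higher, and the other lists had none. Of all genes, 5.59% had such a p. Nrxn3, the host gene of the circle, was at 11.6, 12.4, 2.95 and 8.45 CPM in circNrxn3 siRNA replicates 1 to 4, against 12.3, 3.40, 6.44 and 8.87 CPM in scrambled siRNA replicates 1, 3, 4 and 5. Poly-T selected libraries hold mainly linear mRNA, so Nrxn3 counts do not check the circle. In tissue samples, a lower value can come from fewer cells of a type or from less RNA per cell, and these cannot be told apart.

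None of the 10 genes differed between the groups beyond the spread between animals. Whether the siRNA against the circle was accompanied by other levels of its own machinery was read from circNrxn3 siRNA over scrambled siRNA. In edgeR's quasi-likelihood test over 16573 genes, 0 of 10 members passed an adjusted p of 0.05, where 0% of all genes tested did. DESeq2, which gave Ago4 no adjusted p, and limma-voom also called 0 members. At an unadjusted p below 0.05 there were 0 members, and 5.59% of all genes. Values of the groups overlapped in all 10 members, whereas they did not overlap in 3.48% of all genes (1.82% higher and 1.65% lower in circNrxn3 siRNA). The log2 fold change was above 0 in 6 members, and in 51.3% of all genes. The median was 0.0099 for the members and 0.0066 for all genes. With RLE scaling 5 of the 10 were above 0. With the trend of each library on gene model length removed, 1 of the 10 was above 0. All 10 passed the filter on low counts, so no member was lost before the test.

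**Figure D1:**
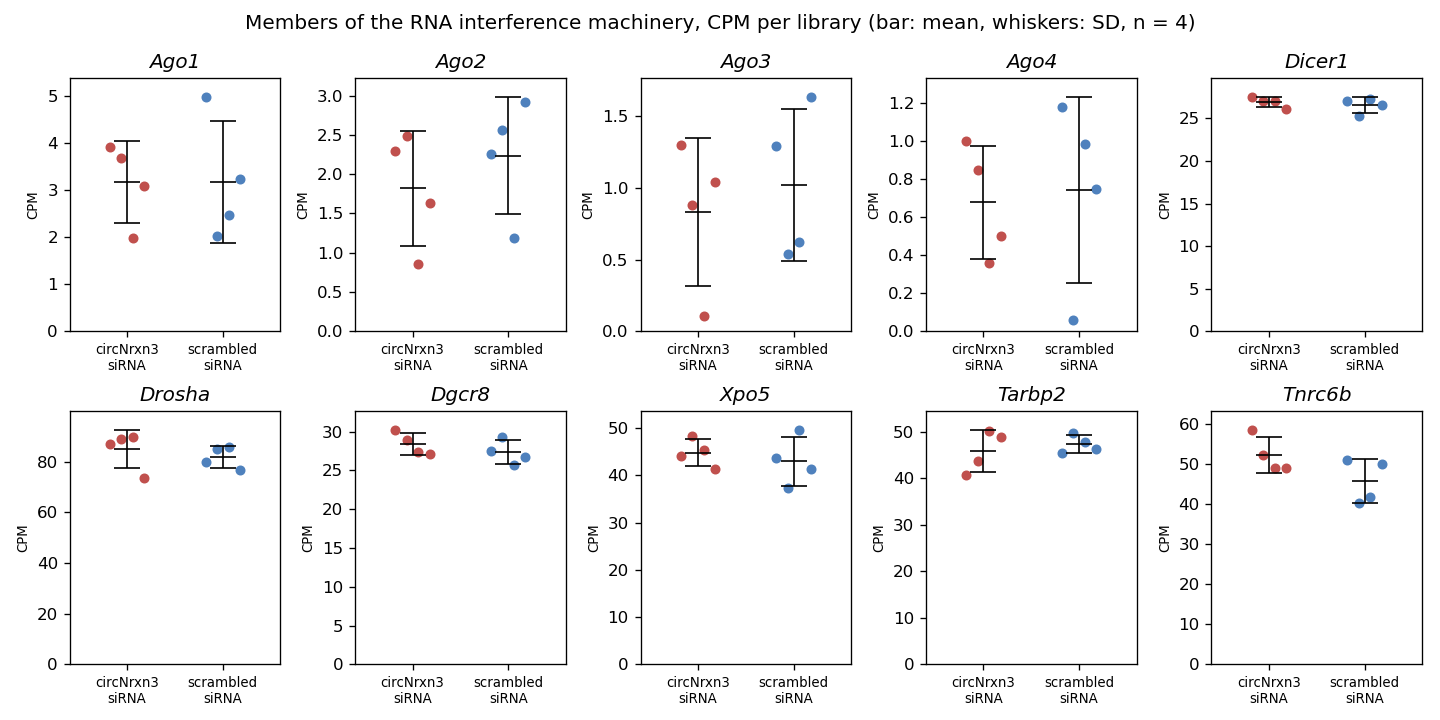
CPM of each member in every library, with circNrxn3 siRNA at the left and scrambled siRNA at the right of each panel (points are libraries, the bar is the mean and whiskers the SD, n = 4 each). Points of the groups overlap in every panel, and the 4 Argonaute panels, at 0.06 to 4.97 CPM, show the widest spread relative to their mean.

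The Microprocessor genes Drosha and Dgcr8 lay close together in the groups. Drosha (ENSRNOG00000013451, chromosome 2, 62887267 to 62999572, rn6), the ribonuclease III that makes the first cut, was at 87.0, 89.1, 89.9 and 73.8 CPM in circNrxn3 siRNA libraries, against 80.0, 84.9, 85.7 and 76.6 CPM in scrambled siRNA libraries. The lowest value of each group was in circNrxn3 siRNA replicate 4 and scrambled siRNA replicate 5, and the groups overlapped. Its log2 fold change was 0.054 with a 95% interval of −0.12 to 0.23 (edgeR adjusted p = 0.915), a range of 0.917 to 1.17 as a fold. Dgcr8 (ENSRNOG00000001886, chromosome 11, 86852711 to 86885224), which binds the hairpin for Drosha, was at 30.2, 28.9, 27.4 and 27.1 CPM in circNrxn3 siRNA libraries, against 27.5, 29.3, 25.8 and 26.7 CPM in scrambled siRNA libraries. Values of both groups thus lay within 25.8 and 30.2 CPM. The log2 fold change of Dgcr8 was 0.054 (95% interval −0.12 to 0.23, edgeR adjusted p = 0.912).

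The microRNA gene Mir1306 lies within Dgcr8 itself, which is why its sequence is given. Mir1306 (chromosome 11, 86857632 to 86857711, plus strand, rn6) is on the same strand as Dgcr8 and inside its gene model. Its products are written below from RefSeq's GRCr8 annotation with the seed in capitals, and their seeds differ. In mouse and human cells the Microprocessor is known to cut hairpins in Dgcr8 mRNA. The Mir1306 row held 0 counts over the 8 libraries together. So did a further microRNA row within Dgcr8 on the same strand (86857312 to 86857399). A microRNA row within Drosha (chromosome 2, 62904400 to 62904540) also held 0. Poly-T selection and the fragment sizes of an mRNA library do not capture mature microRNAs, and 422 of the table's 1588 microRNA rows had any count. How reads within overlapping gene models were counted was not given either, so these 0 counts say nothing about the level of the microRNAs.
rno-miR-1306-5p: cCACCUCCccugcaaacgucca
rno-miR-1306-3p: gACGUUGGcucugguggugaug

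The members for export and dicing were similarly steady. Xpo5 (ENSRNOG00000019085, chromosome 9, 17125201 to 17163170) was at 44.2, 48.2, 45.3 and 41.3 CPM in circNrxn3 siRNA libraries, against 43.6, 37.3, 49.5 and 41.4 CPM in scrambled siRNA libraries. The lowest and the highest of these values were both in scrambled siRNA libraries, replicates 3 and 4. Its log2 fold change was 0.060 (95% interval −0.15 to 0.27, edgeR adjusted p = 0.922). Dicer1 (ENSRNOG00000010711, chromosome 6, 128388053 to 128434183) had the narrowest range of the 10 on the log2 scale, at 27.5, 27.1, 26.99 and 26.1 CPM in circNrxn3 siRNA libraries, against 27.05, 25.3, 27.3 and 26.6 CPM in scrambled siRNA libraries. The means were 26.9 ± 0.58 CPM in circNrxn3 siRNA and 26.6 ± 0.88 CPM in scrambled siRNA libraries (SD, n = 4 each). The 95% interval of the Dicer1 fold ran from 0.908 to 1.13 (log2 fold change 0.018, edgeR adjusted p = 0.970). Tarbp2 (ENSRNOG00000042355, chromosome 7, 144121744 to 144126857) was at 40.7, 43.8, 50.3 and 48.9 CPM in circNrxn3 siRNA libraries, against 45.5, 49.9, 47.9 and 46.3 CPM in scrambled siRNA libraries. Here the circNrxn3 siRNA group spread on both sides of the other, and the log2 fold change was −0.046 (95% interval −0.23 to 0.14, edgeR adjusted p = 0.932).

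Tnrc6b, the scaffold between Argonaute and the deadenylases, had the smallest p of the 10 and did not pass. Tnrc6b (ENSRNOG00000024907, chromosome 7, 121930615 to 122147934) was at 58.5, 52.4, 48.9 and 49.0 CPM in circNrxn3 siRNA libraries, against 50.9, 40.3, 41.7 and 50.2 CPM in scrambled siRNA libraries. Scrambled siRNA replicates 3 and 4 were the lowest, and replicates 1 and 5 lay within the circNrxn3 siRNA values. Its means were 52.2 ± 4.51 CPM in circNrxn3 siRNA and 45.8 ± 5.54 CPM in scrambled siRNA libraries (SD, n = 4 each). Its log2 fold change of 0.19 had a standard error of 0.10 and a 95% interval of −0.034 to 0.41 (unadjusted p = 0.0888, edgeR adjusted p = 0.833). Its gene model of 17566 bp is the longest of the members, and with the length trend removed the log2 fold change was 0.095. Across libraries, the log2 ratio of summed CPM of genes over 2967 bp to that of genes under 1640 bp, centred on its mean, was 0.073 ± 0.11 in circNrxn3 siRNA and −0.073 ± 0.082 in scrambled siRNA libraries (SD, n = 4 each, 2-sided exact permutation p = 0.0571, where 0.0286 is the smallest the design allows). The part of this ratio in the Tnrc6b value was tested only by that removal. With replicate number as a block over numbers 1, 3 and 4, the removal gave 0.15. The relatives of Tnrc6b, chosen after their values were seen, had log2 fold changes of −0.059 (Tnrc6a, standard error 0.083) and 0.35 (Tnrc6c, standard error 0.37).

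**Figure D2:**
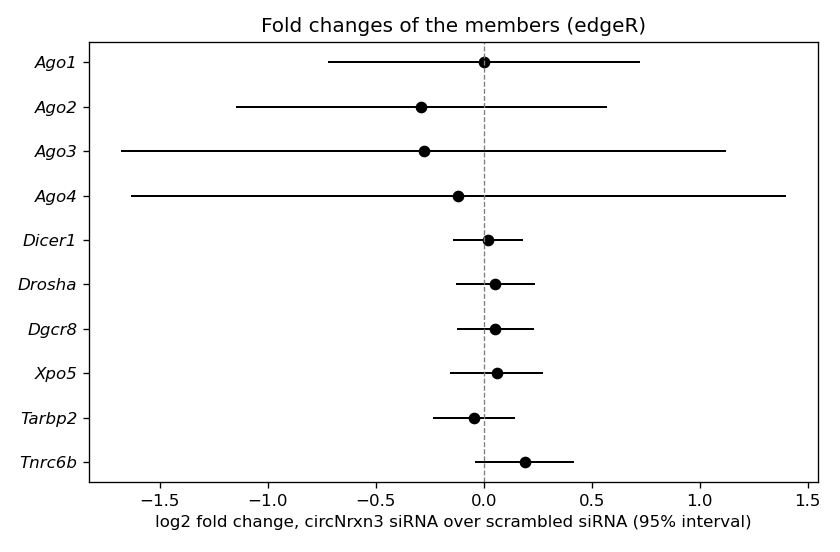
Log2 fold change of each member, circNrxn3 siRNA over scrambled siRNA, with its 95% interval from the edgeR fit. Every interval crosses 0, and those of the 4 Argonautes are several times wider than those of the other 6 members.

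The Argonautes, which hold the guide strand, had the fewest counts and the widest intervals. Ago2 (ENSRNOG00000008533, chromosome 7, 114339434 to 114380613), the mammalian Argonaute best known for cutting its target, was at 2.30, 2.48, 0.864 and 1.64 CPM in circNrxn3 siRNA libraries, against 2.25, 2.56, 1.19 and 2.92 CPM in scrambled siRNA libraries. Those levels rest on 85, 76, 24 and 52 counts in circNrxn3 siRNA and 63, 86, 40 and 86 counts in scrambled siRNA libraries. The lowest library of each group was circNrxn3 siRNA replicate 3 and scrambled siRNA replicate 4, and the groups overlapped. Its log2 fold change was −0.29 with a 95% interval of −1.15 to 0.56 (edgeR adjusted p = 0.910), which is 0.452 to 1.48 as a fold. Without circNrxn3 siRNA replicate 3 the value was −0.071. Leaving out scrambled siRNA replicate 4 gave −0.51.

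Ago1 (ENSRNOG00000055915, chromosome 5, 144448792 to 144479306) was at 3.92, 3.69, 1.98 and 3.09 CPM in circNrxn3 siRNA libraries, against 4.97, 2.03, 2.47 and 3.23 CPM in scrambled siRNA libraries. Its group means were nearly equal, at 3.17 ± 0.87 CPM in circNrxn3 siRNA and 3.18 ± 1.297 CPM in scrambled siRNA libraries (SD, n = 4 each, log2 fold change 0.0014, edgeR adjusted p = 0.9996). Ago3 (ENSRNOG00000034269, chromosome 5, 144364269 to 144436509) was at 1.297, 0.881, 0.108 and 1.04 CPM in circNrxn3 siRNA libraries, against 1.29, 0.537, 0.626 and 1.63 CPM in scrambled siRNA libraries. Its lowest value, in circNrxn3 siRNA replicate 3, rests on 3 counts, for which the exact Poisson interval is 0.619 to 8.77 counts and covers counting error only. The log2 fold change of Ago3 was −0.28 with an interval of −1.67 to 1.12 (edgeR adjusted p = 0.944), and without circNrxn3 siRNA replicate 3 it was 0.072. Ago4 (ENSRNOG00000025596, chromosome 5, 144504938 to 144556889) was at 1.0001, 0.849, 0.360 and 0.504 CPM in circNrxn3 siRNA libraries, against 1.18, 0.0596, 0.984 and 0.748 CPM in scrambled siRNA libraries. Scrambled siRNA replicate 3 held 2 counts of Ago4 (exact Poisson interval 0.242 to 7.22 counts). The log2 fold change of Ago4 was −0.12 with an interval of −1.63 to 1.40 (edgeR adjusted p = 0.982).

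Counting error alone was smaller than the spread of the Argonautes between animals. The biological coefficient of variation is edgeR's estimate of the spread between animals beyond counting. With 1 library per animal, it includes differences of tissue and library preparation. The estimate is drawn toward that of genes at a like level, so nearness to their median is partly built in. It was 0.346 for Ago1, 0.392 for Ago2, 0.595 for Ago3 and 0.634 for Ago4. The counting error expected from their mean counts was 0.10 to 0.211 as a coefficient of variation. In the 3105 genes with a mean between those of Ago4 and Ago1 (0.711 to 3.17 CPM) the median was 0.373. The middle of the distribution ran from 0.315 to 0.464 (25th to 75th percentile). Ago1 and Ago2 lay inside it and Ago3 and Ago4 above. Ago4 and Ago1 stand at the low and high edge of that window, and no Argonaute was compared with genes at its own level alone. The part of level in this order was not tested. For the other 6 members the coefficient was 0.098 to 0.119, against a median of 0.115 in 3508 genes between their lowest and highest mean (26.7 to 83.4 CPM).

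**Figure D3:**
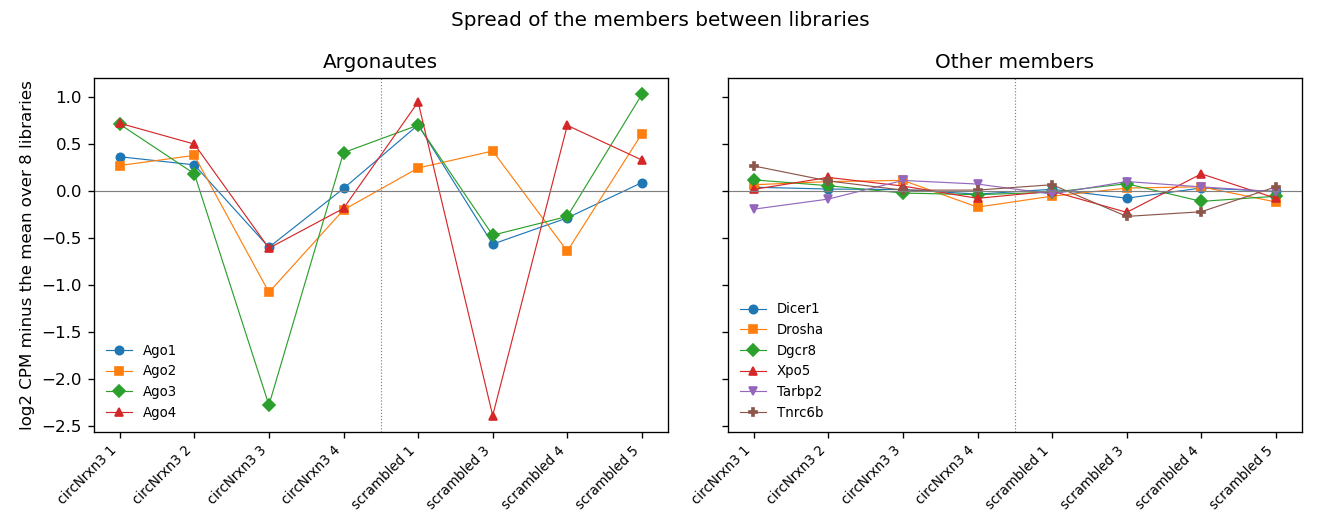
Log2 CPM of each member minus its mean over the 8 libraries, circNrxn3 siRNA libraries left of the dotted line and scrambled siRNA libraries right of it. All 4 Argonautes, at the left, lie below 0 in circNrxn3 siRNA replicate 3, whereas the other 6 members, at the right, lie between −0.27 and 0.26 in every library. The Argonautes rest on 2 to 145 counts a library and the other 6 members on 750 to 3219.

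All 4 Argonautes lay below their mean in circNrxn3 siRNA replicate 3. circNrxn3 siRNA replicate 3 had the lowest value of 3 of the 4 Argonautes (Ago1, Ago2 and Ago3), and scrambled siRNA replicate 3 that of the fourth. How many other genes at a like level were lowest in these libraries was not counted, so this is not shown to be particular to the Argonautes. The 4 genes summed to 8.94, 8.30, 3.26 and 6.30 CPM of the library total in circNrxn3 siRNA libraries, against 9.82, 4.94, 5.12 and 8.30 in scrambled siRNA libraries. Ago1 and Ago3 were lowest in circNrxn3 siRNA replicate 3 and scrambled siRNA replicates 3 and 4, and so were Nrxn3, as given above, and Tnrc6c. Tnrc6c was chosen after its values were seen, and how many of all genes share these lowest libraries was not counted. Tnrc6a did not share them, with its lowest value, 36.6 CPM, in circNrxn3 siRNA replicate 4 and 43.6 CPM in scrambled siRNA replicate 4. Ago2 and Ago4 did not follow: Ago2 was above its mean in scrambled siRNA replicate 3, at 2.56 CPM, and Ago4 in scrambled siRNA replicate 4, at 0.984 CPM. Tnrc6c was at 12.6, 15.7, 5.90 and 11.2 CPM in circNrxn3 siRNA libraries, against 15.2, 5.34, 6.23 and 8.97 CPM in scrambled siRNA libraries. The centred long-to-short ratio was −0.04 in circNrxn3 siRNA replicate 3 and −0.09 and −0.15 in scrambled siRNA replicates 3 and 4. It was −0.10 in scrambled siRNA replicate 5, where Ago2 and Ago3 had their highest values. The part of the length ratio in the Argonaute spread was not tested.

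Per length, Tarbp2 and Drosha were highest and the Argonautes lowest. By the authors' FPKM (fragments per kilobase of gene model, scaled to library size), averaged over the 8 libraries, Tarbp2 was highest at 31.5, followed by Drosha at 18.5, Xpo5 at 8.82 and Dgcr8 at 6.09. The ranges of these 4 over the libraries did not overlap. Tnrc6b at 2.76 FPKM and Dicer1 at 2.69 FPKM could not be separated, as Dicer1's range of 2.57 to 2.77 lay within that of Tnrc6b, 2.30 to 3.27. Next came Ago1 at 1.09, Ago2 at 0.645, Ago3 at 0.292 and Ago4 at 0.188 FPKM. Each of these overlapped its neighbour in the order. The order counts only reads within each member's own model, and unnamed models beside Argonaute genes, described below, are left out of it.

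**Figure D4:**
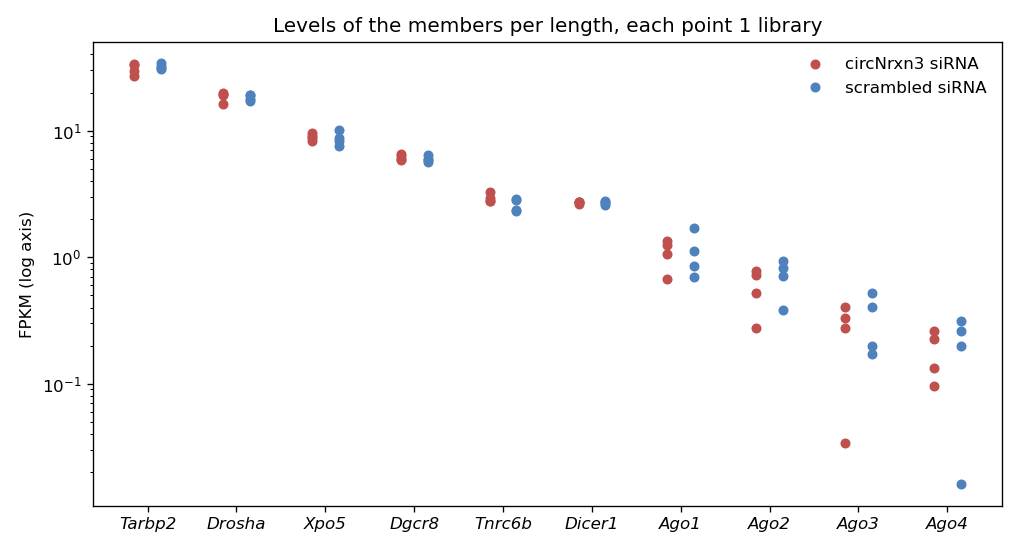
FPKM of each member on a log axis, in order of its mean over 8 libraries, each point 1 library, with circNrxn3 siRNA points left of scrambled siRNA points. Tarbp2 is highest at 27.2 to 34.0 FPKM and the Argonautes occupy the low end, at 0.016 to 1.70 FPKM.

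Among the Argonautes, Ago1 held the largest mean share of their summed FPKM in both groups. Its share was 53.3% ± 6.4 in circNrxn3 siRNA and 46.5% ± 6.9 in scrambled siRNA libraries (SD, n = 4 each), and the ranges of 48.9 to 62.7% and 40.3 to 54.3% overlapped. Ago2 held 27.1% ± 2.6 in circNrxn3 siRNA and 31.8% ± 12.1 in scrambled siRNA libraries, where replicate 3 stood at 48.1% and exceeded Ago1 in that library. Ago3 held 11.2% ± 5.8 in circNrxn3 siRNA and 13.3% ± 3.8 in scrambled siRNA libraries. Ago4 held 8.45% ± 1.3 in circNrxn3 siRNA and 8.39% ± 6.0 in scrambled siRNA libraries. These shares were not tested, and they count only reads within the 4 named models. An unnamed model beside Ago2, described below, was at 7.21 FPKM against 0.645 FPKM for Ago2. Whether its reads belong to Ago2, which would change the shares, was not tested.

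Models without a symbol lie beside the Argonaute genes with far more counts. The models of Ago1, Ago2, Ago3 and Ago4 span 2886 to 3737 bp of exons. On the strand of Ago2, 1589 bp beyond the 3′ end of its model, the table holds a gene model without a symbol (chromosome 7, 114328715 to 114337844, minus strand). It was chosen after its values were seen. It had 2528, 1893, 1600 and 1918 counts in circNrxn3 siRNA libraries, against 1727, 1852, 2060 and 1787 counts in scrambled siRNA libraries, which is 20.8 to 66.7 times the count of Ago2 in the same library. Per length it was at 7.21 FPKM and Ago2 at 0.645 FPKM. Its log2 fold change was 0.054 with an interval of −0.11 to 0.22 (edgeR adjusted p = 0.911). An unnamed model within 2000 bp of the 3′ end on the same strand was found for 57 of 14437 tested protein-coding genes (0.395%). In mouse and human, Argonaute mRNAs carry long 3′ untranslated regions. Whether the reads of the unnamed model come from Ago2 mRNA was not tested.

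Ago3, Ago1 and Ago4 lie side by side on the minus strand of chromosome 5 within 192.6 kb (144364269 to 144556889). Between Ago3 and Ago1 lies another unnamed model (144436552 to 144447816), given as on the plus strand, 975 bp past the 3′ end of Ago1 and 42 bp before the 5′ end of Ago3. It was at 46.3 ± 3.31 CPM in circNrxn3 siRNA and 44.0 ± 2.47 CPM in scrambled siRNA libraries (SD, n = 4 each), and its log2 fold change was 0.073 (95% interval −0.10 to 0.25, edgeR adjusted p = 0.884). In counts it exceeded Ago1 by 8.42 to 24.2 times. Whether strand was used in counting was not stated, so reads of a member and of a neighbour on the opposite strand cannot be told apart where they meet. Rpl26-ps1 lies within Tnrc6b and had up to 19 counts in a library. Polr1c and Polh lie 329 and 183 bp from Xpo5, Trmt2a 401 bp from Dgcr8, RGD1306502 218 bp from Drosha and Npff 227 bp from Tarbp2. The Argonaute genes are close relatives, and reads of a shared stretch could be placed in any of them.

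**Figure D5:**
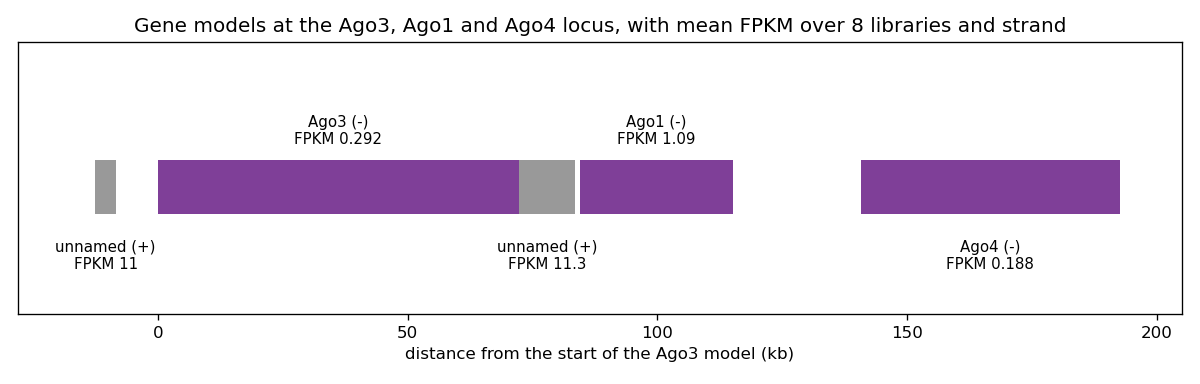
Gene models at the Ago3, Ago1 and Ago4 locus by distance from the start of the Ago3 model, with strand and mean FPKM over the 8 libraries. Grey bars are models without a symbol, of which the one between Ago3 and Ago1 is at 11.3 FPKM, beside purple Argonaute models at 0.188 to 1.09 FPKM.

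The wider pathway was read from 7 further lists, of which 116 of 123 symbols were found and 103 gene rows were tested. Of these 0 passed in either direction (edgeR, smallest adjusted p = 0.833), and 5 had an unadjusted p below 0.05 (4.85%, against 5.59% of all genes). In 7 the groups did not overlap (6.80%, against 3.48%), with 6 higher and 1 lower in circNrxn3 siRNA. A log2 fold change above 0 was seen in 73 of 103 (70.9%), against 51.3% of all genes, and the median was 0.090. The count was 68 with RLE scaling, 76 with upper quartile scaling and 61 with the length trend removed, where the median was 0.040 and 48.7% of all genes were above 0. Without circNrxn3 siRNA replicate 1 it was 67, with a median of 0.044. With the replicate block over numbers 1, 3 and 4 and the length trend removed it was 59, with a median of 0.023. Markers of other cell types moved in both directions, as given above, and their part in this count was not tested.

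By role, the partners of the Microprocessor had 12 of 14 tested rows above 0 (median 0.070). Ncbp1, a subunit of the nuclear cap-binding complex, had a log2 fold change of 0.15. Ncbp2, its partner, was at 6.77 ± 7.18 CPM in circNrxn3 siRNA and 1.99 ± 0.38 CPM in scrambled siRNA libraries (SD, n = 4 each, edgeR adjusted p = 0.833) in 1 of its 2 gene models. Erh and Srrt, at −0.10 and −0.061, had the smallest p of those below 0. Partners of export and of Dicer had 9 of 12 above 0 (median 0.087). Stau2, a double-stranded RNA binding protein that carries mRNAs into dendrites, was at 120.4 ± 3.67 CPM in circNrxn3 siRNA and 107.6 ± 2.43 CPM in scrambled siRNA libraries (SD, n = 4 each). All 4 circNrxn3 siRNA values of Stau2 lay above the others, yet Stau2 missed the threshold at a log2 fold change of 0.16 (edgeR adjusted p = 0.833). Papd4, a cytoplasmic poly-A polymerase, had 0.60, Adarb2 −0.71 and Ran −0.032. The value of Adarb2 had a standard error of 0.68 and rests on 3 to 41 counts a library.

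Chaperones and other genes that load Argonaute and clear the passenger strand had 9 of 15 above 0 (median 0.020). Dnaja2, an Hsp40 chaperone, was at 162.5 ± 5.66 CPM in circNrxn3 siRNA and 142.6 ± 6.85 CPM in scrambled siRNA libraries (SD, n = 4 each, log2 fold change 0.19, edgeR adjusted p = 0.833). Groups did not overlap in Dnaja2. Hspa4, an Hsp110 chaperone, had 0.16, and the Hsp90 cochaperone Cdc37 −0.13. The row of Hsp90aa1 was at 3.21 ± 0.54 CPM in circNrxn3 siRNA and 4.53 ± 3.05 CPM in scrambled siRNA libraries. Argonaute partners and the GW182 relatives had 12 of 17 above 0 (median 0.12). Fmr1, which encodes the fragile X protein FMRP, had 0.17, whereas Wtip had −0.32 and Fxr2 −0.11.

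Genes of deadenylation, decapping and translational repression had 16 of 25 above 0 (median 0.077). Eif4a2, a translation initiation helicase, was at 663.6 ± 14.2 CPM in circNrxn3 siRNA and 593.7 ± 29.8 CPM in scrambled siRNA libraries (SD, n = 4 each), without overlap between the groups (log2 fold change 0.16, edgeR adjusted p = 0.833). The CCR4-NOT subunits Cnot11 and Cnot3 had 0.22 and −0.15, and the decapping cofactor Dcp1b −0.21. Groups did not overlap in Cnot11, higher in circNrxn3 siRNA, nor in Cnot3, lower in circNrxn3 siRNA. Transport and sensing of double-stranded RNA had 11 of 13 above 0 (median 0.15). There Sidt1, a homologue of a worm double-stranded RNA channel, had 0.14 and Eif2ak2, the kinase PKR, 0.49 with a standard error of 0.40. Zbp1, a sensor of Z-form nucleic acid, had −0.998 with a standard error of 1.25, and Sidt2 −0.00094. Of the germline PIWI pathway, 7 of 12 genes were tested and 4 of these were above 0 (median 0.28). Piwil2 was at 5.65 ± 1.83 CPM in circNrxn3 siRNA and 4.65 ± 1.71 CPM in scrambled siRNA libraries (SD, n = 4 each). Henmt1 had 0.62, Piwil1 −1.02 and Pld6 −0.17, with standard errors of 0.50, 0.88 and 0.45. These rest on few counts, 7 to 39 a library for Henmt1, 1 to 46 for Piwil1 and 9 to 28 for Pld6.

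Genes whose pattern over the 8 libraries was most like that of Ago2 and Dicer1 were found by the root mean square difference of centred log2 CPM among 13005 protein-coding genes. For Ago2 they were LOC102552796 at 0.178, Med12l, a Mediator subunit, at 0.200 and Arr3, an arrestin, at 0.226, against a median of 0.593 over all genes compared. For Dicer1 they were Ckap5, a microtubule polymerase, at 0.021, Ubr4, a ubiquitin ligase, at 0.027 and Btbd6 at 0.028, against a median of 0.194. Closeness to Dicer1 is set largely by how flat a gene is, since Dicer1's own root mean square deviation was 0.036. That of Ago2 was 0.552, near the median of 0.593, so that median largely reflects Ago2's own spread. The named genes were picked as the closest of 13005, and Ago2 rests on 24 to 86 counts a library.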

How the data were processed

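Poly-T selected, strand-marking libraries were made from total RNA, per the labels' protocols. The authors deposited whole-number read counts per gene, and FPKM values of the same genes, also deposited by the authors. Dividing counts by FPKM gave 1 total per library, 0.952 to 1.07 times the count total, so the FPKM values had been scaled between samples. The submitters' processing notes list fastp, featureCounts 1.5.0-p3, StringTie 1.3.3b, HISAT2 2.0.5 and the build rn6, with no roles or settings. Group and replicate number came from sample titles.

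Members and lists were chosen with earlier results of these data known. Counts were fitted with edgeR 4.0.16 in R 4.3.3 (filterByExpr with a minimum count of 10, TMM factors, robust quasi-likelihood F test, no covariates, 2-sided, Benjamini-Hochberg over 16573 genes). CPM values use the TMM factors, except the summed Argonaute counts, which were scaled by the library total. Intervals are at the 95% level. Within each other list, the 2 tested genes with the smallest unadjusted p in each direction are named. One gene that this rule names is not reported here. The procedure was also run on simulated data, whose outcome is not given here. The simulated libraries had no length trend and no correlation between libraries of the same replicate number. Every pair of libraries in a group differed beyond sampling noise (chi-square over its degrees of freedom 23.2 to 47.4). The labels call the samples biological replicates. Alternatives used DESeq2 1.42.0 and limma 3.58.1, including FPKM fits.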

Additional observations from a re-analysis of the deposited data

How the results depend on the processing

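No member passed an adjusted p of 0.05 under any of the 22 alternatives that gave it one (edgeR, DESeq2 or limma). Ago4 was not in the fit of genes with a CPM of at least 1 in 4 libraries, and DESeq2 gave it no adjusted p. Ago2 and Tnrc6b kept their direction in all 22. Over all genes, DESeq2 called 11, the replicate block with the length trend removed called 8, and leaving out 1 library gave 0 to 1. The number of members above 0 was 1 with the length trend removed and 2 with that and the replicate block, and 3 to 8 when 1 library was left out; the low end was without scrambled siRNA replicate 3 and the high end without circNrxn3 siRNA replicate 3. With the length trend removed, 5 members changed sign, with log2 fold changes of −0.036 for Ago1, −0.069 for Dicer1, −0.014 for Drosha, −0.013 for Dgcr8 and −0.0093 for Xpo5. Ago1 was at −0.0098 with RLE scaling, −0.0012 without a filter and −0.0075 with DESeq2, and Ago4 at 0.42 with limma-voom and 0.012 on log2(FPKM + 0.1). The causes were not tested.

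Replicate numbers 1, 3 and 4 occur in both groups. Deviations of same-numbered libraries correlated at 0.37, 0.30 and 0.09 for numbers 1, 3 and 4, the last under 0.1, so the numbers were not taken as pairs; 5 of the 6 libraries correlated best with their own number. With the replicate block over these libraries 0 genes were called (1692 at an unadjusted p below 0.05, against 508 unpaired). The block gave −0.023 for Ago1, 0.10 for Ago4 and −0.0041 for Drosha. For Tnrc6b it gave 0.24 (edgeR adjusted p = 0.280), the smallest adjusted p of any member in any alternative. The same libraries unpaired gave −0.070 for Ago1, 0.015 for Ago3 and 0.24 for Tnrc6b (edgeR adjusted p = 0.9999 for Tnrc6b). The block with the length trend removed gave −0.065 for Ago1, 0.053 for Ago4, −0.058 for Dicer1, −0.064 for Drosha, −0.025 for Dgcr8 and −0.049 for Xpo5. Leaving out 1 library in turn, log2 fold changes ran from −0.17 to 0.30 for Ago1, −0.58 to 0.072 for Ago3, −0.51 to 0.19 for Ago4, −0.0092 to 0.033 for Dicer1, −0.0081 to 0.13 for Xpo5 and −0.10 to 0.0089 for Tarbp2. The Argonautes rest on 2 to 145 counts a library.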
